A study of Saccharomyces cerevisiae with 3 samples.

Results

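Baker's yeast exposed to 15 µM tomatidine was compared with yeast exposed to 7.5 µM tomatidine, gene by gene, to describe which transcripts were higher or lower at the larger dose. The members were the 2 arrays titled with these doses, out of 3 arrays in the series, and all 9275 probe sets that are not array controls, out of 9335. The solvent control array entered no value below. Both cultures were of Saccharomyces cerevisiae S288c, the reference laboratory strain, and both were exposed for 5 h to the compound dissolved in dimethylformamide (DMF), so that strain, time and solvent were the same and the dose differed. Total RNA of each whole culture was hybridised to 1 Affymetrix yeast array. With 1 array a dose there was neither a replicate nor a test, and no p-value is given. A difference between doses cannot be told apart from a difference between the cultures, their RNA or their arrays. The values are relative, so neither a level without the compound nor a response to it can be read from them.

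Tomatidine is a steroidal alkaloid, the part of the tomato glycoalkaloid tomatine that remains when its sugars are removed. Yeast membranes hold ergosterol, which is made from acetyl-CoA through the mevalonate pathway, squalene and lanosterol, and sterol enzymes late in this route are known targets of steroidal alkaloids. When sterols run short, the transcription factors Upc2 and Ecm22 raise the genes of sterol synthesis, and Upc2 also raises sterol import and the cell wall mannoproteins that yeast makes without oxygen. Cell wall damage signals through the protein kinase C pathway and calcineurin, and slow growth or stress raises the targets of the transcription factors Msn2 and Msn4 while ribosome production falls.

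The deposited values are intensities on a linear scale, 1 summary signal per probe set. Each array was scaled to its median signal, with factors of 0.993 at 15 µM and 1.01 at 7.5 µM, and a floor was set at 18.3, the 40th percentile of the scaled signals of both arrays. There were 5656 genes read by a probe set of their own, of which 4638 exceeded the floor in at least 1 dose and were compared, and 1018 did not. Across the 9275 probe sets, which are not replicates, the floored log2 signals of the arrays correlated with r = 0.988. As a measure of RNA integrity, the probes at the 3' end of ACT1 (actin) were 1.47-fold brighter than those at its 5' end at 15 µM and 1.80-fold at 7.5 µM, and for SPT15 (TATA-binding protein) the ratios were 2.48 and 2.35. The 8 spike controls used here, which read added bacterial and phage transcripts, were 1.11-fold brighter on the 7.5 µM array after median scaling. The part of RNA quality or spike level in the results was not tested. S288c is an alpha mating-type strain, and the defining genes matched: the alpha-factor gene MF(ALPHA)1 read 1357 and 1522 at the 2 doses, while all 7 genes specific to the other mating type were under the floor on both arrays, the highest at 14.6. Of 19 meiosis genes, 17 were under the floor.

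Most genes differed little between the doses. The median log2 ratio of 15 µM over 7.5 µM was -0.0044, the middle 50% of genes lay between -0.21 and 0.19, and 4298 genes (92.7%) were within 1.5-fold. In all, 34 genes were at least 2-fold higher at 15 µM (0.733% of those compared) and 15 at least 2-fold lower (0.323%). In 7 of the higher genes and 1 of the lower genes the dimmer of the signals did not exceed the floor, and the fold is then a lower bound. At 1.5-fold, 192 genes were higher (4.14%) and 148 lower (3.19%). These are rules of size, not tests. With the arrays scaled on the spikes, the median of all genes rose by 0.15 and the 2-fold counts became 57 higher and 4 lower, so the balance between higher and lower depends on the scaling. Where several probe sets read 1 gene, their log2 ratios varied with a pooled SD of 0.29 (199 genes). This spread is between probes on a shared RNA sample and leaves out the cultures.

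**Figure D1:**
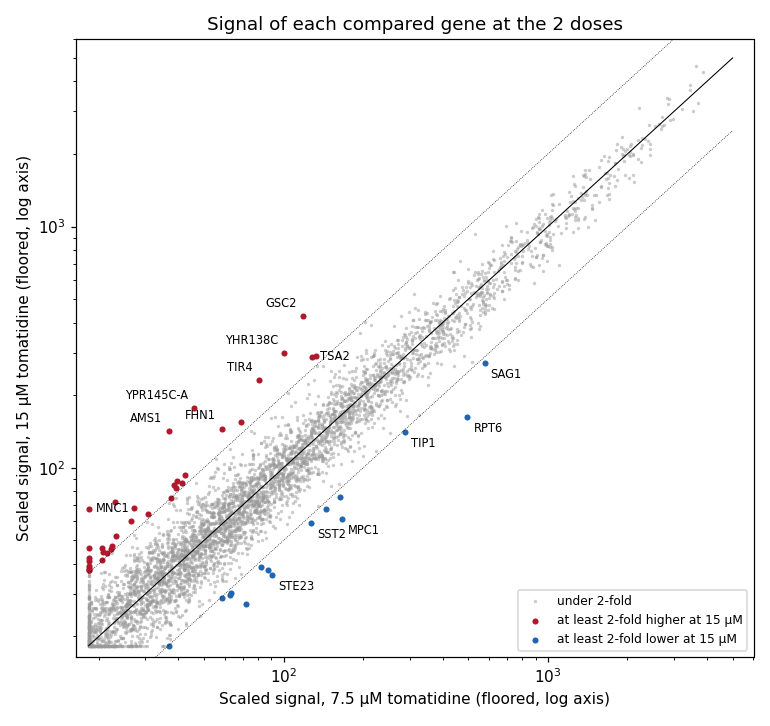
Scaled signal at 15 µM tomatidine (vertical) against 7.5 µM (horizontal) for the 4638 compared genes, on log axes and floored at 18.3; the solid line marks equal signals and the dotted lines 2-fold. The 34 red genes were at least 2-fold higher and the 15 blue genes at least 2-fold lower at 15 µM, and GSC2 and RPT6 stand apart among the brighter genes.

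Signals are given with 15 µM first, and values in brackets are log2 ratios of 15 µM over 7.5 µM unless a fold is named. Among the genes with the largest ratios were some of the vacuole, the cell wall, the plasma membrane and redox metabolism. YPR145C-A, a short gene known only by its systematic name, read 177 at 15 µM and 45.8 at 7.5 µM, a log2 ratio of 1.95. AMS1, the vacuolar alpha-mannosidase that is carried to the vacuole as autophagic cargo, read 142 and 36.7 (3.86-fold). GSC2, the inducible catalytic subunit of the enzyme that makes 1,3-beta-glucan, read 424 and 119 (3.58-fold). It is read by 7 probe sets: the brightest, used here, gave 1.84, a further 2 gave 1.30 and 1.19, and 4 were under the floor on both arrays, so that their mean was 0.62. YHR138C, a small protein related to an inhibitor of vacuolar proteinase B, read 298 and 101 (2.96-fold), and TIR4, a cell wall mannoprotein of cells without oxygen, read 231 and 80.5 (2.87-fold).

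Other genes past 2-fold were mostly dimmer at 7.5 µM. YPL088W, a putative aryl alcohol dehydrogenase, read 72.2 at 15 µM and 23.1 at 7.5 µM. PDR15, a drug efflux transporter of the ABC type, read 68.3 and 27.1, and FHN1, a membrane protein of the Nce102 family, 145 and 58.5. MPC3, the subunit that the mitochondrial pyruvate carrier uses in respiring cells, read 60.2 and 26.4. These genes were 2.28-fold to 3.13-fold higher. For MNC1, NQM1, a second transaldolase, and FMP25, a mitochondrial protein, the 7.5 µM signal was at or under the floor, and they were at least 3.68-fold, 2.53-fold and 2.30-fold higher. VPS36, a subunit of the ESCRT-II complex that sorts membrane proteins to the vacuole, was 2.25-fold higher, from 23.2, and the seripauperin genes PAU3 and PAU13 are described with their family below. The other 19 genes past 2-fold were up to 2.25-fold higher, among them TSA2, HSP26, ATG33 and RGT1, each described with its list. With the floor raised to the 60th percentile 10 of the 34 stayed at least 2-fold higher, and MNC1, YPL088W, NQM1, PDR15, FMP25, MPC3, PAU3, VPS36, HSP26, ATG33 and RGT1 did not, since their 7.5 µM signals lie under that floor.

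RPT6, an ATPase of the regulatory particle of the proteasome, was lowest relative to 7.5 µM, with signals of 163 at 15 µM and 496 at 7.5 µM (3.05-fold lower). MPC1, the subunit common to every form of the mitochondrial pyruvate carrier, read 61.4 and 167 (2.71-fold lower). SAM3, a permease for S-adenosylmethionine that also carries polyamines, read 27.1 and 72.4 (-1.42) on the brightest of its 5 probe sets. Another probe set also passed 2-fold, at 16.3 and 51.3 (-1.49). Its 15 µM signal was under the floor, so this ratio is a bound. A probe set with a mean signal nearly equal to that of the brightest read 41.8 and 57.2 (-0.45). The remaining probe sets were under the floor on both arrays and entered the mean over all 5, which was -0.67, as 0. Whether SAM3 passed 2-fold thus depended on the probe set. SST2, the GTPase activator that ends pheromone signalling, STE23, a protease of pheromone maturation, and SAG1, the alpha-agglutinin of the cell surface, were 2.15-fold, 2.52-fold and 2.13-fold lower. TIP1, a cell wall mannoprotein of aerated cells, read 140.5 and 288.1 (2.05-fold lower). The remaining genes at 2-fold were LEC1 (-1.21), MIY3 (-1.10), the small nucleolar RNA gene SNR67 (-1.10), ATR1, a drug and borate exporter (-1.09), KRE33, which acetylates ribosomal RNA (-1.08), MRPS28 of the mitochondrial ribosome (-1.06), ARP7, a subunit of chromatin remodellers (-1.02), and PPM1 (at least 2.01-fold lower). Scaled on the spikes, RPT6, MPC1, STE23 and LEC1 stayed at least 2-fold lower and the other 11 did not. For SAM3, 1 of the 11, the probe set at -0.45 was then the brightest and was used in place of that at -1.42. With the higher floor 7 of the 15 stayed.

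Gene lists show how far whole processes differed. Of 66 lists, 64 had at least 3 measured members. Their medians ran from -0.54 to 0.55, with 30 above 0 and 34 below, and all but 3 lay between -0.25 and 0.25, close to the middle 50% of all genes. Sterol import and low-oxygen mannoproteins and the general stress response were at the top, and mating-type alpha genes, purine synthesis and branched-chain amino acid synthesis at the bottom. Counts within a list are to be read against the shares over all genes, which were 49.2% above 0, 4.14% past 1.5-fold in the higher direction and 3.19% in the lower one. Spike scaling turned 25 of the 34 medians below 0 to above 0, so the median of a list is read here against that of all genes. RNA came from whole cultures, so fewer cells of a state and less RNA per cell cannot be told apart.

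**Figure D2:**
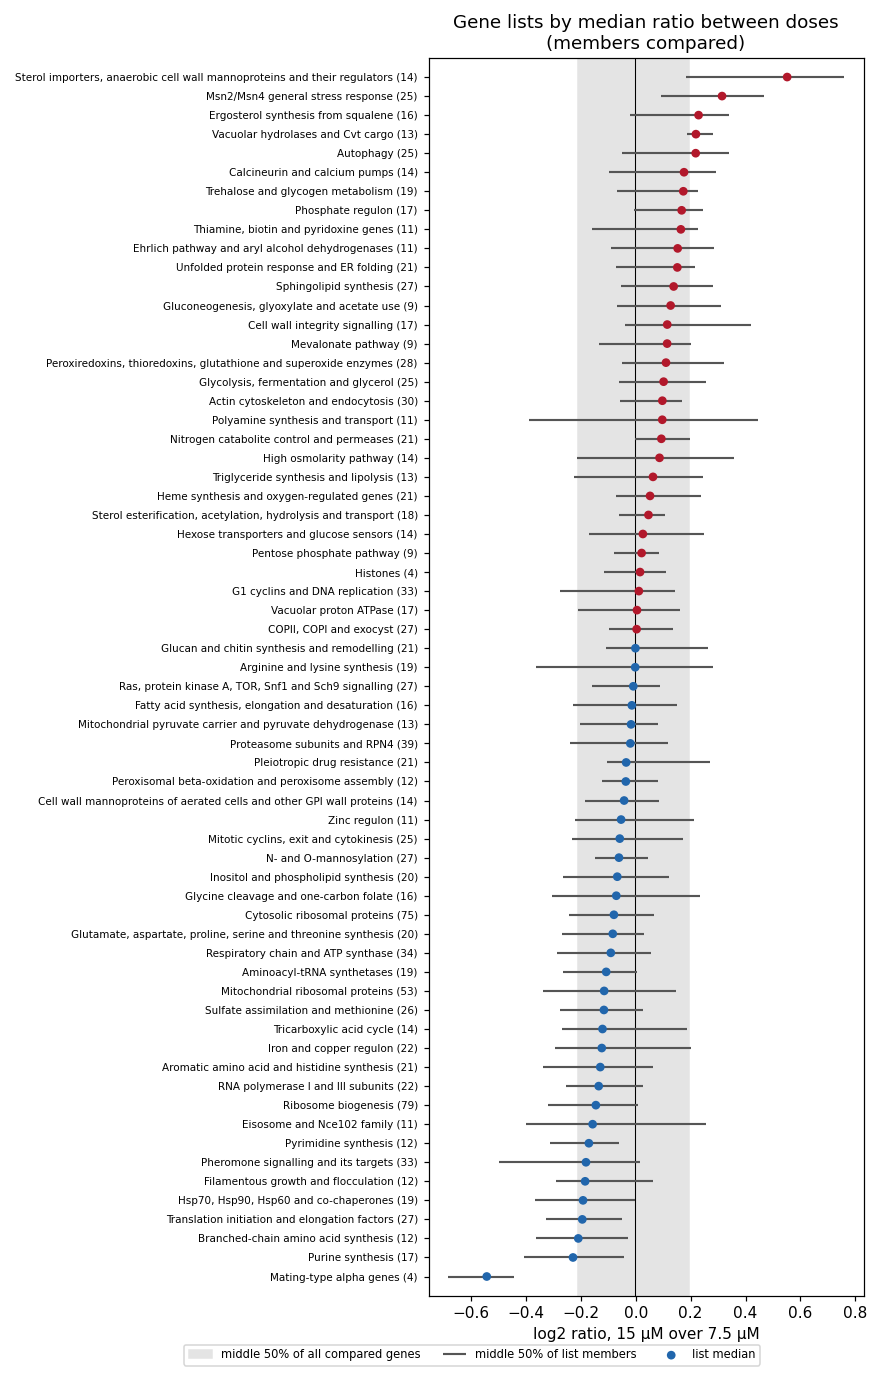
Median log2 ratio of 15 µM over 7.5 µM (points, horizontal axis) for the 64 gene lists with at least 3 measured members, with the middle 50% of each list as a line, that of all 4638 genes as a grey band, and the number of members in brackets. Only 3 lists have medians beyond 0.25 in either direction, and most lines overlap the band.

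The sterol genes divided by role. Regulators, importers and low-oxygen mannoproteins had the highest median of the 64 lists, 0.55 over 14 measured members against -0.0044 for all genes, with 12 above 0 (85.7%, against 49.2% of all genes). At 1.5-fold, 6 of the 14 were higher (42.9%, against 4.14% of all genes) and 1 lower (7.14%, against 3.19%). The transcription factor gene UPC2 read 29.6 at 15 µM and 21.7 at 7.5 µM (0.45), close to the floor at both doses, while its paralog ECM22 read 28.2 and 42.7 (-0.60). Their ratios lay on opposite sides of 0. SUT1 and SUT2, which promote sterol uptake, were at -0.20 and 0.16.

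Among the importers, AUS1, an ABC transporter, read 143 and 75.5 (1.89-fold higher) and PDR11, its paralog, 59.8 and 40.9 (1.46-fold). HES1, an oxysterol-binding protein homolog, read 101 and 62.0. All 3 were brighter at the higher dose. AUS1 is read by 6 probe sets, and the only other one above the floor read 39.4 and 29.6 (0.41). The place of AUS1 among the genes past 1.5-fold thus rests on the choice of probe set. The mannoprotein genes ranged from TIR4, described above, through DAN4 (933 and 529, 0.82), PAU23 (0.78), TIR3 (717 and 466, 0.62) and DAN1 (461 and 314, 0.55) to TIR1 and TIR2. TIR1 was already among the bright genes, 3379 at 15 µM and 2881 at 7.5 µM, and differed by 1.17-fold. TIR2 lies next to TIR4 on the chromosome and read 191 and 170.0 (0.17), so these neighbours differed in size of change. PAU23 is read by a probe set that other family members may also bind.

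The enzymes that lead from squalene to ergosterol were bright at both doses and differed little. Their median log2 ratio was 0.23 over all 16 genes, 11 lay above 0, and none reached 1.5-fold in either direction. ERG28, the scaffold of the C4 demethylation complex, read 649 and 439 (0.56), and ERG26, the C3 dehydrogenase of that complex, 451 and 324 (0.48). The other enzymes of that complex, ERG25 and ERG27, were at -0.07 and 0.09. ERG1, squalene epoxidase (0.44), ERG6, the C24 methyltransferase (0.38), NCP1, the reductase that feeds electrons to cytochrome P450 enzymes (0.33), ERG2, the C8 isomerase (0.27), ERG24, the C14 reductase (0.26), ERG7, lanosterol synthase (0.25), and ERG11, lanosterol demethylase (0.21), lay above 0. ERG3, the C5 desaturase, was at 0.08 and CYB5, cytochrome b5, at -0.01. ERG9, squalene synthase (-0.11), ERG5, the C22 desaturase (-0.12), and ERG4, the last enzyme of the route (-0.22), lay below 0. Centred on its chromosomal neighbours, ERG4 was at 0.10 instead.

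The mevalonate pathway, the source of squalene, had a median of 0.11 over its 9 genes. The genes ranged from ERG13, HMG-CoA synthase (0.27), ERG10 (0.20), ERG20 (0.20), ERG8 (0.19), MVD1 (0.11) and IDI1 (0.06) to HMG1 (-0.13) and ERG12 (-0.14). A second ERG12 probe set of nearly equal mean signal read 101 and 93.7 (0.10), and a dimmer one was at -0.14. The side of 0 of ERG12 thus rests on the choice of probe set. HMG2, the inducible isozyme of HMG-CoA reductase, stood apart, with 139 at 15 µM and 253 at 7.5 µM (1.81-fold lower). Its isozyme HMG1 read 469 and 514.

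**Figure D3:**
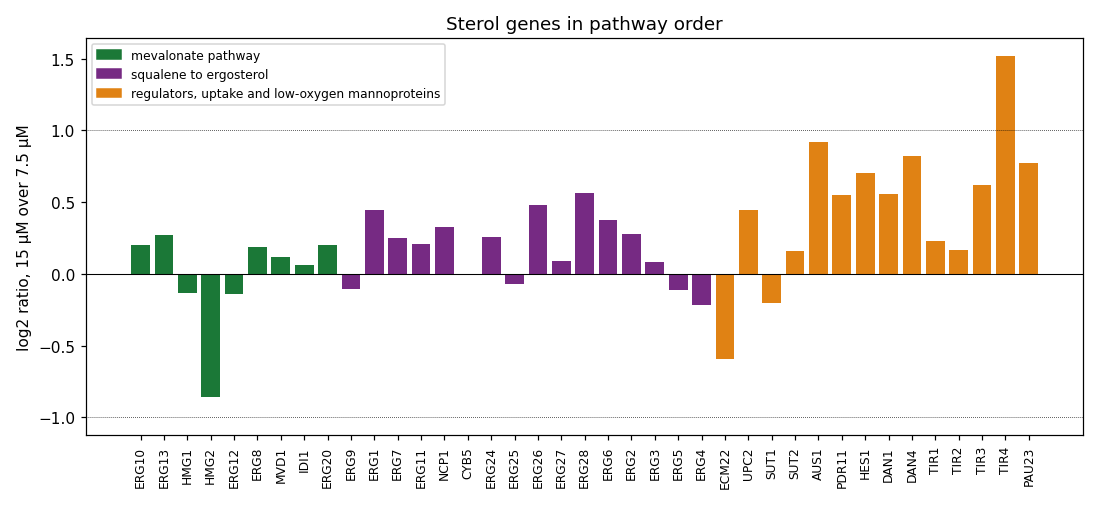
Log2 ratio of 15 µM over 7.5 µM (vertical) for each measured gene of the mevalonate pathway, of the route from squalene to ergosterol, and of sterol regulation, uptake and low-oxygen mannoproteins, in pathway order, with 1 bar per gene from 1 array a dose; dotted lines mark 2-fold. TIR4 alone passes 2-fold, and HMG2 and ECM22 are the lowest bars.

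Genes of the general stress response were higher at 15 µM on balance, with a median of 0.31 over 25 measured members of 32 listed and 19 above 0 (76%, against 49.2% of all genes). For 4 of the 25 the dimmer signal did not exceed the floor, which fixed their side of 0. At 1.5-fold, 3 were higher (12%, against 4.14% of all genes) and 1 lower (4%, against 3.19%). HSP26, a small heat shock chaperone, read 82.6 at 15 µM and 39.3 at 7.5 µM (2.10-fold higher), HSP12, a membrane-binding stress protein, 263 and 141 (1.87-fold), and MSC1 76.5 and 46.9 (1.63-fold). MSN4, one of the pair of transcription factors that drive this response, was at least 1.66-fold lower, with its 15 µM signal under the floor. In trehalose and glycogen metabolism the median was 0.17 over 19 members. TSL1, a subunit of the trehalose synthase complex, read 162 and 93.0 (0.80) and was the only member past 1.5-fold, while GPH1, glycogen phosphorylase, was lowest (-0.55).

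Vacuolar hydrolases and autophagy genes had medians above that of all genes, and the proton pump did not separate from it. Hydrolases and their cargo had a median of 0.22 over 13 members, 11 above 0, with the middle 50% between 0.19 and 0.28. Besides AMS1, PRB1, proteinase B, read 401 and 204 (1.97-fold higher), and APE1, an aminopeptidase that reaches the vacuole by the same route as AMS1, 151 and 101 (0.58). PEP4, proteinase A, the protease that activates the others, was at 0.28, PRC1, carboxypeptidase Y, at 0.23, and ATH1, PHO8, ATG42, DAP2, CPS1 and LAP3 lay between 0.09 and 0.23. APE3 (-0.09) and PEP1, the sorting receptor that brings carboxypeptidase Y to the vacuole (-0.54), lay below 0. Of the autophagy genes, 25 of 37 were measured, 18 lay above 0 (72%) and the median was 0.22. For 6 of the 25 the dimmer signal did not exceed the floor, which fixed their side of 0 and made their ratios bounds. At 1.5-fold 4 were higher (16%, against 4.14% of all genes). ATG33, needed for mitophagy, read 47.3 and 22.3 (1.08), and ATG7, the activating enzyme of the conjugation system, ATG5, one of its conjugates, and ATG11, a scaffold of selective autophagy, were at 0.76, 0.74 and 0.67. No autophagy gene was 1.5-fold lower on the floored signals, and ATG3, the conjugating enzyme, had the lowest floored ratio (-0.41). The 17 measured subunits and assembly factors of the vacuolar proton pump had a median of 0.0046 and none past 1.5-fold.

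At the cell surface a few genes differed, while the list medians lay between -0.04 and 0.18. Glucan and chitin synthesis had a median of -0.0011 over 21 members, with GSC2 the only member 1.5-fold higher and KRE6, which acts in 1,6-beta-glucan synthesis (220.3 and 351, -0.67), the only one lower. In cell wall integrity signalling (median 0.11 over 17), 3 genes were 1.5-fold higher (17.6%, against 4.14% of all genes) and 1 lower (5.88%, against 3.19%). The aspartyl protease gene YPS1 (0.66), the MAP kinase gene SLT2 (118 and 76.1, 0.63) and ROM1, an exchange factor for Rho1 (0.62), were the higher members, and the surface sensor gene WSC3 (-0.68) the lower one. Among calcineurin and calcium genes (median 0.18 over 14), CMK2, a calmodulin-dependent kinase, read 109 and 55.4 (1.96-fold higher). The transcription factor gene CRZ1 (0.34) and its known targets PMC1, the vacuolar calcium pump (0.36), and RCN1, a calcineurin regulator (0.30), lay above 0 without reaching 1.5-fold, and the exchanger VCX1 (-0.40) was lowest. The calcineurin subunit genes CNA1 (-0.01), CMP2 (0.18) and CNB1 (0.27), the calmodulin gene CMD1 (-0.07) and the kinase gene CMK1 (-0.13) were among the rest. For CMK1 the 15 µM signal was under the floor, so its ratio is a bound. The calcium channel genes CCH1 (-0.21) and MID1 (0.17), the Golgi pump gene PMR1 (0.27) and the sodium pump gene ENA5 (-0.10) made up the remainder. A second probe set above the floor put CCH1 at 0.64 (39.0 and 25.1) and CNB1 at -0.07 (96.3 and 101). The side of 0 of CCH1 and CNB1 thus rests on the choice of probe set. The mannoproteins of aerated cells had a median of -0.04 over 14, from YGP1 (0.57) to TIP1. Many of them are among the brightest genes, such as CCW12 (4361 and 3875, 0.17) and CWP2 (-0.02), and these did not separate the doses.

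Genes of membrane domains and sphingolipids split. Of the eisosome list, the furrows of the plasma membrane and the tetraspan proteins around them, FHN1 (1.31) and PUN1 (181 and 107, 0.76) were higher. The other 9 of the 11 measured members were within 1.5-fold. The main constituents PIL1 (-0.16), LSP1 (-0.42), SUR7 (-0.53) and NCE102 (-0.39) and the TORC2 adaptor genes SLM1 (-0.35) and SLM2 (-0.40) lay below 0, and EIS1 (0.07) and the kinase genes PKH1 (0.21) and PKH2 (0.30) above it, for a list median of -0.16. Sphingolipid genes had a median of 0.14 over 27. YSR3, a phosphatase of sphingoid base phosphates, read 263 and 133 (1.97-fold higher), and AUR1, the inositol phosphorylceramide synthase, 289.6 and 482 (1.67-fold lower). The fatty acid list had a median of -0.01 over 16, with the elongase ELO1 (-0.68) lowest and the desaturase OLE1, named after its value was seen, at 0.17. The phospholipid, triglyceride and sterol ester lists held no member past 1.5-fold.

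In carbon metabolism the enzymes of glycolysis and fermentation had a median of 0.10 over 25, with 1 member past 1.5-fold, GPP2, a glycerol-3-phosphatase (291 and 163, 0.83). In the osmotic stress list, of which GPP2 is also a member, GRE2, a stress-induced reductase, was 1.69-fold higher and SKO1, a transcription factor of that pathway, 1.56-fold lower. The list of hexose transporters and glucose sensors had a median of 0.03 over 14, with 8 above 0. HXT4 (-0.73) and HXT6 (-0.74), transporters of higher affinity, were the 2 members at least 1.5-fold lower. Of the other transporters, HXT2 (-0.20) and HXT7 (-0.43) lay below 0 and HXT1 (0.08), HXT3 (0.27) and HXT5 (0.31) above it. HXT6 and HXT7 are near-identical and their probe sets are of a type that may be shared, so these are not independent values. Of these transporters, HXT1, HXT2, HXT3, HXT5 and HXT7 are named after their values were seen. RGT1, a repressor of hexose transporter genes, read 41.6 and 20.5 (1.02), and its 7.5 µM signal lay near the floor.

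The list of pyruvate use had a median of -0.02 over 13 and held the widest span of the carbon lists, from MPC1 to MPC3. MPC2, the partner of MPC1 in fermenting cells, read 499 and 509 (-0.03). PYC1, a pyruvate carboxylase, read 223 and 124 (1.80-fold higher), while PYC2, its isozyme, read 269 and 339 (-0.33). The pyruvate dehydrogenase subunits PDA1 and PDB1 were at 0.05 and -0.02. The tricarboxylic acid cycle (median -0.12 over 14) had no member past 1.5-fold, and of 34 respiratory chain and ATP synthase genes (median -0.09) 1 was lower, ATP5 (-0.66), and none higher. The list of heme and oxygen had a median of 0.05 over 21, with 15 above 0, from HAP2 (0.53), a subunit of the activator of respiratory genes, to AAC3. Of its members 2 were at least 1.5-fold lower (9.52%, against 3.19% of all genes) and none higher. ROX1, the repressor of low-oxygen genes, read 33.98 and 58.9 (-0.79) and AAC3, the ADP/ATP carrier made without oxygen, 33.8 and 60.8 (-0.85). AAC3 thus lay on the other side of 0 from the low-oxygen mannoproteins.

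Redox enzymes had a median of 0.11 over 28, with 4 higher at 1.5-fold (14.3%, against 4.14% of all genes) and 1 lower (3.57%, against 3.19%). TSA2, a peroxiredoxin, read 287.7 at 15 µM and 128 at 7.5 µM (2.25-fold higher). GTT1, a glutathione transferase of the endoplasmic reticulum, read 389.6 and 215 (1.81-fold), the mitochondrial thioredoxin reductase TRR2 was at 0.81 and GTT2 at 0.61. CCP1, the mitochondrial cytochrome c peroxidase, read 56.5 and 92.6 (-0.71). In the unfolded protein list (median 0.15 over 21), ERO1, the oxidase of protein folding in the endoplasmic reticulum, was the only member past 1.5-fold (0.62).

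The transporters of drug resistance went both ways, with a median of -0.03 over 21. Besides PDR15, RTA1, a membrane protein linked to aminocholesterol resistance, was at least 1.86-fold higher, with its 7.5 µM signal under the floor. PDR12, the exporter of weak organic acids, read 34.8 and 65.2 (-0.91), and ATR1 38.6 and 82.4. The other 17 measured members of the list were within 1.5-fold. Sulfate assimilation and methionine genes had a median of -0.12 over 26, with 3 at least 1.5-fold lower (11.5%, against 3.19% of all genes) and none higher. These were MUP3, a methionine permease (-0.92), MMP1, which carries S-methylmethionine (-0.95), and MET1 of siroheme synthesis (-0.60). For 3 of the 26 measured members of this list the dimmer signal did not exceed the floor, which fixed their side of 0. The iron and copper regulon (median -0.12 over 22) had 3 lower (13.6%) and 1 higher (4.55%), namely the copper transporter CTR1 (-0.64), the metal transporter FET4 (-0.66), the ferric reductase FRE6 (-0.73) and, higher, the copper-binding activator CUP2 (0.78). In the polyamine list (median 0.10 over 11), SAM3 was lower at 1.5-fold (9.09%, against 3.19% of all genes). DUR3, which carries urea and polyamines (0.66), and TPO4, a polyamine exporter (0.72), were higher (18.2%, against 4.14%). The exporter genes TPO2 and TPO3 were under the floor on their own probe sets. A probe set that reads both of them was at 154 and 249 (-0.69), on the other side of 0 from TPO4. In the phosphate regulon (median 0.17 over 17), PHO80, the cyclin that holds the regulon off, was the only member past 1.5-fold (0.65).

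Mating genes had medians below that of all genes, with members on both sides of 0. All 4 measured alpha-specific genes lay below 0, with a median of -0.54: MF(ALPHA)1 (-0.17), MF(ALPHA)2 (377 and 547, -0.54), the a-factor receptor gene STE3 (270.3 and 395, -0.55) and SAG1 (271 and 576, -1.09). SAG1 alone passed 1.5-fold. Over the 33 measured genes of pheromone signalling and its targets, which include these 4, the median was -0.18, 22 lay below 0 and 11 above. At 1.5-fold, 5 were lower (15.2%, against 3.19% of all genes) and 2 higher (6.06%, against 4.14%). SAG1 and SST2 were less than 2-fold lower with spike scaling and after centring on chromosomal neighbours. SST2 read 59.1 and 127, STE23 36.0 and 90.8, the mating MAP kinase gene FUS3 34.97 and 58.7 (-0.75) and PRM1, which acts in membrane fusion of mating cells, 34.2 and 58.6 (-0.78). A second FUS3 probe set above the floor read 30.6 and 35.6 (-0.22), so the place of FUS3 among the 5 rests on the choice of probe set. The pheromone-regulated genes PRM4 (204 and 104, 0.97) and PRM5 (119.8 and 62.7, 0.93) were higher instead. TEC1, a transcription factor of filamentous growth that the same kinases control, read 86.0 and 162 (-0.91).

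Lists of ribosome production and translation had medians slightly below that of all genes, with members on both sides of 0. Of 79 ribosome biogenesis genes, 58 lay below 0 with a median of -0.15, and 3 were 1.5-fold lower (3.80%, near the 3.19% of all genes), UTP4 (-0.59), DIM1 (-0.68) and RRP36 (-0.88), and none higher. Translation factors had a median of -0.19 with 22 of 27 below 0, and the lowest was GCD7, a subunit of the exchange factor eIF2B (-0.71). RNA polymerase I and III subunits (-0.13, 16 of 22 below 0) and aminoacyl-tRNA synthetases (-0.11, 14 of 19) held no member past 1.5-fold. Of 132 cytosolic ribosomal protein genes 75 had a probe set of their own, with a median of -0.08 and 48 below 0, and RPL38 was the only one past 1.5-fold (-0.68). Mitochondrial ribosomal proteins (-0.12 over 53) had 23 members above 0. At 1.5-fold 4 were lower (7.55%, against 3.19% of all genes), MRPS28, MRPL49 (-0.82), MRPL31 (-0.70) and MRPL24 (-0.68), and 2 higher (3.77%, against 4.14%), MRPL37 (0.63) and MRPL19 (0.60). Each of these 6 medians lay below that of all genes under all 9 alternatives run, although spike scaling moved all but that of the translation factors above 0.

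Purine, pyrimidine and branched-chain amino acid synthesis also lay below the median of all genes. Purine synthesis had a median of -0.23 over 17, with 13 below 0. IMD4, which makes the precursor of GTP, was the only member past 1.5-fold (581 and 885, -0.61). A second, dimmer IMD4 probe set read 212 and 448 (-1.08), so the size of its difference depended on the probe set. Of 12 pyrimidine genes 11 lay below 0 (median -0.17), from CDD1, cytidine deaminase (0.25), to URA4, dihydroorotase (-0.57), and none reached 1.5-fold. Branched-chain amino acid synthesis (median -0.21, 9 of 12 below 0) also had none past 1.5-fold. ARG1, argininosuccinate synthase, read 273 and 515 (1.88-fold lower), although the arginine and lysine list as a whole had a median of -0.0019. In that list ARG3, ornithine carbamoyltransferase, was at least 1.51-fold lower, with its 15 µM signal under the floor. GCV2, of the glycine cleavage complex, was at -0.68.

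Protein quality control did not move as a block. The 39 measured genes of the proteasome and its regulation had a median of -0.02, with 18 above 0 and 21 below. RPT6 stood far below the other subunits, of which RPN13, a ubiquitin receptor, was next (191 and 290.3, -0.60). UBI4, which codes for a chain of ubiquitins and is induced by stress, read 251 and 162 (0.63). Chaperones of the Hsp70, Hsp90 and Hsp60 kinds had a median of -0.19 over 19 with 14 below 0. HSP82, the inducible Hsp90, read 165 and 324 (1.96-fold lower), and HSP78, a mitochondrial chaperone, was highest (0.36). HSP82 and its near-identical paralog may share probes. The stress genes above and these chaperones thus lay on different sides of the median of all genes.

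**Figure D4:**
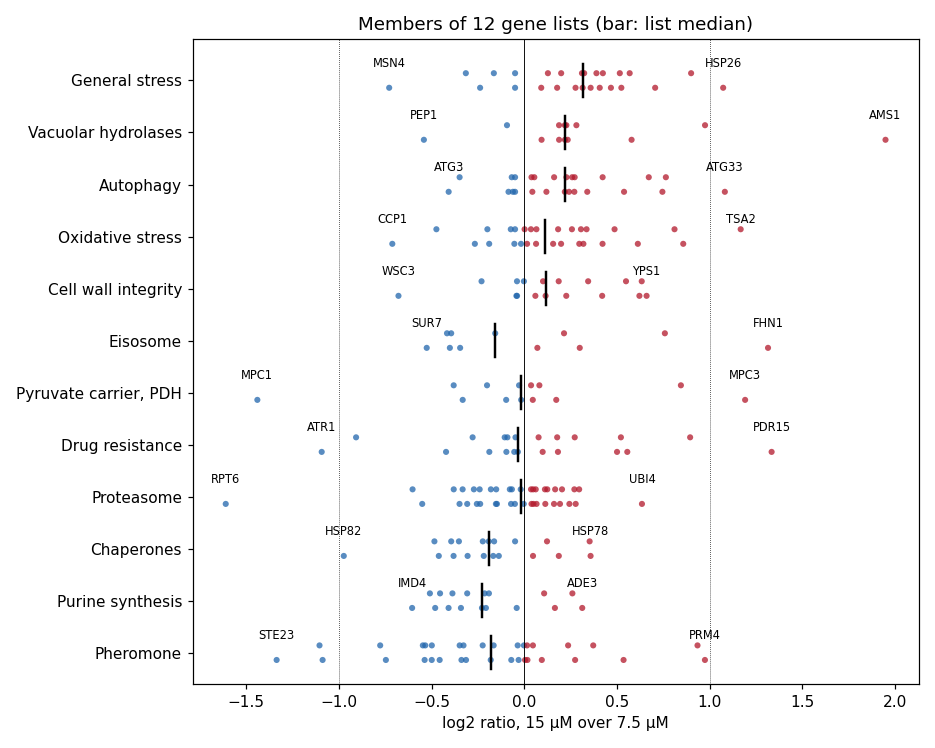
Log2 ratio of 15 µM over 7.5 µM (horizontal) for every measured member of 12 gene lists, 1 point per gene, red above 0 and blue below, with the list median as a bar, the highest and lowest member named, and 2-fold marked by dotted lines. Single members such as RPT6, MPC1, MPC3, FHN1 and AMS1 lie far from the rest of their lists.

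Some pairs of isozymes or related proteins were on different sides of 0, 9 of 16 examined, an observation on pairs chosen after the values were seen. The phospholipase B genes PLB1 and PLB2 were at 0.84 and -0.83, FHN1 and NCE102 at 1.31 and -0.39, PUN1 and SUR7 at 0.76 and -0.53, YSR3 and LCB3 at 0.98 and -0.58, and SKN1 and KRE6 at 0.55 and -0.67. PYC1 and PYC2, given above, were also of this kind. So were IMD2 and IMD4 (0.16 and -0.61) on the brightest probe set of IMD2. The other probe sets of IMD2 were at -0.27 and -0.43, on the side of IMD4, so this pair rests on the choice of probe set. In MPC3 and MPC2 (1.19 and -0.03) and CMK2 and CMK1 (0.97 and -0.13) the lower member lay within the 0.15 by which spike scaling shifts all genes. On its brightest probe set FKS1, the constitutive partner of GSC2, read 1309 and 1302 (0.01). Its other probe sets above the floor lay between -1.19 and -0.08, the brightest of them at 481 and 674 (-0.49). The small difference of FKS1 thus rests on the choice of probe set. TSA1, the constitutive partner of TSA2, read 2055 and 1967 (0.06). Pairs with both members on 1 side included GPP2 and GPP1 (0.83 and 0.39) and HSC82 and HSP82 (-0.31 and -0.97).

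Probe sets of some repeated families lay nearly all above 0, with sizes that varied widely, an observation made after the values were seen. A set of 30 probe sets is annotated jointly to reading frames YHL009W-A, YHL009W-B, YJL113W and YJL114W, which belong to the retrotransposon Ty4. Of these, 20 were above the floor, with a median log2 ratio of 1.07 and a range from -0.0082 to 1.47. Of the 20, 19 lay above 0, 1 of them with its 7.5 µM signal under the floor. The 20 had median signals of 141 at 15 µM and 60.1 at 7.5 µM. Of them 13 were at least 2-fold higher, against 0.733% of all genes compared. The seripauperins are a family of mannoproteins whose members are mostly raised without oxygen. They gave 11 probe sets annotated to several PAU genes, all above 0 with a median of 1.02 (0.36 to 1.75). Another 10 were annotated to 1 PAU gene each, with a median of 0.75 (0.16 to 1.18). Of these 10, 2 were under the floor at 7.5 µM and entered only through the 15 µM array, so that their side of 0 was fixed by the filter, and the other 8 lay above 0. PAU3 read 46.4 and 20.5, and PAU13 155 and 69.1. The 210 other probe sets with several genes had a median of -0.02, and 2 of them were 2-fold lower and none higher. Probe sets of 1 family bind near-identical sequences, so they are not independent and no single copy can be credited with the difference.

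**Figure D5:**
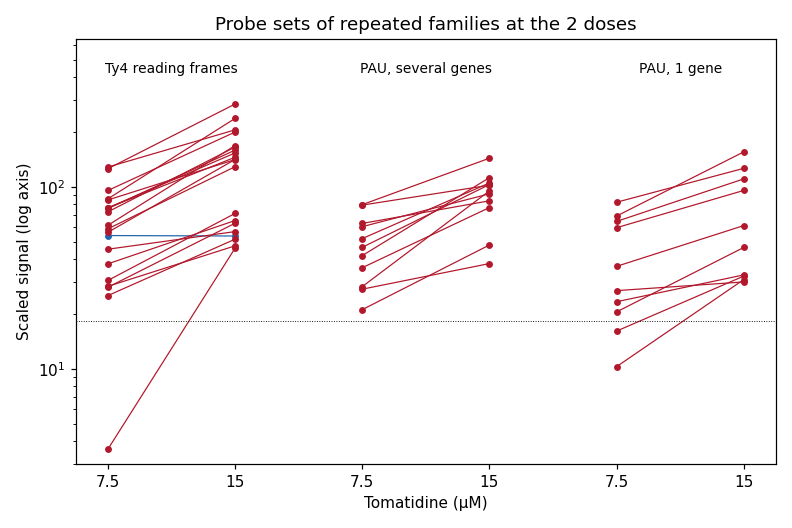
Scaled signal (log axis) at 7.5 and 15 µM tomatidine for each probe set above the floor that reads the Ty4 reading frames, several PAU genes or 1 PAU gene, with 1 line per probe set, red where higher at 15 µM; the dotted line is the floor of 18.3. All lines but 1 rise, and probe sets of 1 family may share targets.

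Other processes differed little between these arrays. The median of 28 of the 64 lists lay within 0.1 of that of all genes. COPII, COPI and exocyst genes (27 genes), histones (4) and G1 cyclins and replication (33) had medians between 0.0032 and 0.02, and signalling by Ras, protein kinase A and TOR (27) a median of -0.01. Single members still differed, such as POL12, a subunit of DNA polymerase alpha (0.65), CDC45, a replication factor (-0.90), MCM3 of the replicative helicase (-0.60), the protein kinase A subunit gene TPK3 (-0.77), and, in TOR signalling, LST8 (-0.59). TAP42, also in TOR signalling, was at least 1.71-fold higher, with its 7.5 µM signal under the floor. With 1 array a dose, a small difference of such a list could not be detected, and no list can be said to be the same at both doses.

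Neighbouring genes on a chromosome had related ratios, and this touches some genes named above. MPC1 lies beside the dim YGL081W and MIY3, which was also lower (-1.10), AMS1 beside ARI1 (0.82), SAG1 beside MRX12 (-0.84), PUN1 beside VPS36, PRB1 beside SOM1 (0.74) and AUS1 beside YOR012W (0.73). After the median ratio of the 4 compared genes on either side was subtracted, a step added after the data were seen, 24 of the 34 higher and 7 of the 15 lower genes stayed past 2-fold. AMS1 then stood at 1.55, GSC2 at 1.70, TIR4 at 1.38 and RPT6 at -1.38. MPC1 (-0.98), SAG1 (-0.82), SST2 (-0.83), TSA2 (0.95), MPC3 (0.87) and HSP26 (0.96) kept their direction and were below 2-fold. The part of chromosomal position or of position on the array in these values was not tested.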

How the data were processed

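Total RNA of 1 yeast culture a dose was hybridised to 1 Affymetrix array each. The deposited intensity values, which are linear and number 1 per probe set, were made by the authors. How they were summarised, background-corrected and scaled is not given here. With 2% of probe sets trimmed at either end, the mean was 99.5 at 15 µM and 99.9 at 7.5 µM, so the deposited intensities appear to carry a global scaling, which hides a change of total messenger RNA.

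Of 9275 non-control probe sets, 6504 were annotated to 1 gene, all matched to the R64 gene table, 328 to several genes and 2443 had no entry. For 315 genes with more than 1 probe set the brightest was used. Arrays were scaled to the median, floored at the 40th percentile and compared as log2 ratios. Rules of size (2-fold and 1.5-fold, brighter array above the floor) take the place of tests, and the number of arrays limits the precision. The script was tested on simulated arrays with known changes. Settings tried were no scaling beyond that of the authors, spike scaling, quantile normalisation, lowess centring (span 0.3), a lower and a higher floor (20th and 60th percentile), a pseudocount at the 5th percentile with no floor, the mean of all probe sets, a 3-fold rule and, added after the data were seen, centring on chromosomal neighbours.

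Members and gene lists were chosen with earlier results of these data known. The rule for names covers the 15 largest in each direction at 2-fold, the highest, the lowest and those past 1.5-fold in each list with at least 3 members, and all members of described lists of up to 16 genes. Not every gene it covers is printed, and which were left out was decided with the values known. Promoter motifs were not searched. Coordinates are left out, since the labels name no build. Tables were handled in Python 3.11.15 with pandas 2.3.3 and numpy 2.4.6, lowess came from statsmodels 0.14.6, and plots from matplotlib 3.10.9.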

Additional observations from a re-analysis of the deposited data

How the results depend on the processing

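No paired analysis was possible because each dose has 1 array. None of the 49 genes past 2-fold changed sign under any of 9 settings. For genes chosen at 2-fold this was nearly fixed in advance in several settings. A floor or a pseudocount does not reverse the order of 2 signals, and spike scaling shifted the median of all genes by only 0.15. Of 194 genes covered by the naming rule 3 changed sign, each after centring on neighbours: ERG4 (-0.22 to 0.10), ZRT3 (-0.28 to 0.02) and MET13 (0.29 to -0.01). Of 64 list medians 32 changed sign under at least 1 setting, 25 of them with spike scaling. Counts moved with the floor, the scaling and the fold. The 34 genes at least 2-fold higher and 15 lower became 57 and 4 with spike scaling, 127 and 55 with a 20th percentile floor, 10 and 7 with a 60th percentile floor, 69 and 30 with a pseudocount and no floor, and 5 and 1 at 3-fold. The 192 and 148 genes at 1.5-fold became 373 and 61 with spike scaling, 428 and 292 with the lower floor and 91 and 58 with the higher floor. Of the 49 genes past 2-fold, 8 stayed past it in all 9 settings that keep the 2-fold rule: YPR145C-A, AMS1, YHR138C, TIR4, FHN1, PAU13 and PBI1 higher and RPT6 lower. Many of the others have a dimmer signal below the higher floor, so their folds are smaller there by construction. Spike scaling took 11 of the 15 lower genes below 2-fold, SST2, SAG1 and TIP1 among them (for SAM3 another probe set was then the brightest), and the mean of all probe sets took GSC2, SAM3 and YAL063C-A below it.

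Relative to the median of all genes, 48 of 64 lists kept their side under every setting, 24 above and 24 below, and 16 changed side, none with a distance over 0.17. The sterol uptake list stayed between 0.50 and 0.63, general stress between 0.31 and 0.33, ergosterol between 0.22 and 0.27 and the alpha genes between -0.59 and -0.51. Depth of signal limits dim genes most: 1018 genes were not compared, and the robust spread of ratios was 0.33 in the 928 dimmest genes and 0.26 in the 928 brightest.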

Other observations

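Ratios of genes that lie next to each other on a chromosome were correlated across the genome. Over 4621 adjacent pairs of compared genes Pearson's r was 0.27 (Spearman's rho 0.31), over 4604 pairs 2 genes apart 0.21, over 4556 pairs 5 apart 0.075 and over 4316 pairs 20 apart 0.045. Genes are not independent replicates, and all pairs share the same 2 arrays. The numbers of the probe sets on this array follow the chromosomes for most genes. Adjacent genes whose probe set numbers are 1 to 5 apart had r = 0.29 over 4036 pairs, and those over 100 apart r = 0.059 over 272 pairs. In 27 places 2 or more adjacent compared genes passed 1.5-fold in 1 direction, 14 higher and 13 lower. The longest run held 4 genes on chromosome VII, TAM41 (0.84), TFC4 (0.59), UFD1 (0.59) and SCM4 (0.62), and PYC1 (0.84), DUO1 (1.04) and YBP2 (0.77) lie together on the same chromosome. Whether these runs come from the cells or the array was not tested.

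Probe sets without an entry in the annotation numbered 2443, of which 586 were above the floor. Their median log2 ratio was 0.02, and 6 were at least 2-fold higher and 4 lower.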
